A study of Homo sapiens with 6 samples.

Results

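The genes described here are 46 long genes of neuronal synapses and cell adhesion, out of 20037 protein-coding genes, followed through 6 ATAC-seq summit lists of H1 human pluripotent stem cells. RIMS1 and KCNN2 were selected on the scores and presence of their lost and gained loci in earlier results of these same libraries, and the other 44 genes were selected as long genes of the same kind with those results in view. All values that compare the hairpins below are therefore descriptions, and no test was made of them. Every summit inside one of the genes or within 2000 bp of it was counted. A summit within 2000 bp of either end of the gene was placed at a gene end, and one farther inside was placed in the gene body. The genes are 311 kb (CNTN6) to 2474 kb (RBFOX1) long, with a median of 1126 kb, and lie on 17 chromosomes. Together they held 4274 of the 356720 deposited summits, 360 at gene ends and 3914 in gene bodies, and each of the 46 had a summit in every library.

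ATAC-seq maps accessible chromatin by letting the transposase Tn5 cut it, and a summit is the position where the signal of a called peak is highest. H1 is an established line of human embryonic stem cells, grown here in mTeSR1 medium on Matrigel. Cells were infected with lentivirus made in 293T cells and selected with puromycin, so that all 6 libraries, controls included, come from infected and selected cultures of a single line. The groups are shHNRNPU #1, shHNRNPU #2 and shLUC, with 2 libraries each. The first 2 carry different hairpins against HNRNPU, which encodes a nuclear RNA-binding protein of the nuclear matrix, and shLUC carries a hairpin against luciferase, a gene that human cells lack. The level of HNRNPU was not measured in these files. The labels number the repeats but do not say whether they were separate cultures, so the spread between them may be technical.

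The lists held 52168 to 63519 summits, and the shortest was that of shHNRNPU #2 repeat 2. The score of a summit is the −log10 of its q-value in its own library. Its median was 6.91 to 8.43 over the 6 libraries, highest in the shortest list. Read depth is unknown, and where a library has no summit the signal was not called, which does not show closed chromatin. A locus is a place where summits of different libraries lie within 250 bp of a common centre, and 1698 of the 123131 loci were in the 46 genes, 104 at ends and 1594 in bodies. Of 9 genes that mark pluripotent cells, 8 had a summit at a gene end in all 6 libraries, the exception being LIN28B with none. An end summit in all 6 libraries was also found for 5 of 5 neural progenitor markers, 6 of 7 neuronal, 4 of 4 mesoderm, 3 of 4 endoderm and 3 of 4 trophoblast and amnion markers, so that a summit at a gene end did not separate these classes of marker.

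Genes for synapse formation are among the longest of the genome, since their coding parts are spread over very long introns. Their products hold the presynaptic and postsynaptic membranes together, guide axons, release transmitter and receive it. Pluripotent stem cells form no synapses, and most of these genes are used mainly after neuronal differentiation, often from several start sites that lie far apart. Starts rich in CpG dinucleotides are commonly accessible in many cell types, whether or not the gene is strongly transcribed.

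RefSeq promoter sequences of GRCh38.p14 matched 37 of the 46 genes, with 82 listed starts, and had no entry for GRID1, LRRTM4, CSMD1, CSMD3, NRG1, CDH13, RIMS2, SNTG1 and LRP1B. The 7 sequences printed here are the 250 bases before a start, 5′ to 3′ on the strand of the gene, and were picked after their summits had been seen. The first pair are the starts beside which a locus was lost, the next 4 are starts with a summit within 500 bp in all 6 libraries, and the last is an outermost start with none. Capitals mark the stretch from the farthest to the nearest summit among the libraries' best summits that lay within these bases.
KCNN2 internal start, chr5:114361820-114362069, plus strand: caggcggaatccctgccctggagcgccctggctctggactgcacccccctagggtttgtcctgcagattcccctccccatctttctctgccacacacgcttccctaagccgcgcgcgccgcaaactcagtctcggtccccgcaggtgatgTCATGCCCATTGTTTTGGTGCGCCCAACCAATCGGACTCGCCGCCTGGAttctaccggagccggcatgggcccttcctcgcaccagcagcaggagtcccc
GPC6 internal start, chr13:93226557-93226806, plus strand: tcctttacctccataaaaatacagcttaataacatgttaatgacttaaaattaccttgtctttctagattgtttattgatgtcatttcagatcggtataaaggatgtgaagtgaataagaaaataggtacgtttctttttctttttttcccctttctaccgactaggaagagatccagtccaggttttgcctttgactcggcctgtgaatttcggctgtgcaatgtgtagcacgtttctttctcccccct
PCDH9 outermost start, chr13:67230337-67230586, minus strand: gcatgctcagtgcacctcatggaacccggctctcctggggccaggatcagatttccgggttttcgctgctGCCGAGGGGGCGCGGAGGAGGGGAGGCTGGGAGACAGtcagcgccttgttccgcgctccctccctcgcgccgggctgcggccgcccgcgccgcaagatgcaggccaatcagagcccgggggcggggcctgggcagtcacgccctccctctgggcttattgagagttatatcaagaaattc
DLG2 outermost start, chr11:85628374-85628623, minus strand: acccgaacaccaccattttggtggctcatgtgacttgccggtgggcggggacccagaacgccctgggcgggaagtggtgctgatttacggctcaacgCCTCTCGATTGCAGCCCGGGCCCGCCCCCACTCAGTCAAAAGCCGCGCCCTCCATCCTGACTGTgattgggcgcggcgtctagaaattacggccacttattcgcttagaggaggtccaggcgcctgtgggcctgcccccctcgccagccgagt
ROBO1 internal start, chr3:79019460-79019709, minus strand: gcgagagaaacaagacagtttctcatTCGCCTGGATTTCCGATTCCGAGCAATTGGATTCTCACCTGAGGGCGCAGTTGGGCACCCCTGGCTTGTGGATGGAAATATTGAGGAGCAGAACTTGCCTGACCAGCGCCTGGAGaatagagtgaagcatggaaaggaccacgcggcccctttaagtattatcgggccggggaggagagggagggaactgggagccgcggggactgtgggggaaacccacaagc
NRXN3 internal start, chr14:79279130-79279379, plus strand: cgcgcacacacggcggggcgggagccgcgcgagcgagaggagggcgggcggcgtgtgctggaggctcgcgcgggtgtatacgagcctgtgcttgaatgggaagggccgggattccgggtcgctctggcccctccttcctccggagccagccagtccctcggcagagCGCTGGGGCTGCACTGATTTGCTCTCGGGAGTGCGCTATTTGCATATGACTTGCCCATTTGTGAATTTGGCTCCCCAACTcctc
CTNNA2 outermost start, chr2:79185127-79185376, plus strand: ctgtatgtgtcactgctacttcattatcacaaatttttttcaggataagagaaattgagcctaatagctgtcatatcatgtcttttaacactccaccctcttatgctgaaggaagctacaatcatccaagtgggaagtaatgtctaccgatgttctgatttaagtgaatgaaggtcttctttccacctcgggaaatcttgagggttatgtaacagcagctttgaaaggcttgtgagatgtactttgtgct

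At the internal start of KCNN2, 306.1 kb into the gene, the capitals span 49 bases between the summits of the 2 shLUC libraries, 100 and 52 bp before the start. None of the 4 shHNRNPU libraries had a summit within 500 bp. The stretch holds the letters CCAAT, and the 250 bases have 64.8% G and C and 17 CpG dinucleotides. At the internal start of GPC6, 10.3 kb into the gene, the shLUC summits lay 27 and 133 bp after the start, so that no base is in capitals. Its 250 bases hold 37.6% G and C and 6 CpG dinucleotides. The letters TATAAA occur in them but not close to the start, and were searched anywhere in the window. The summits of all 6 libraries fell within 37 bases at PCDH9, 64 bases at DLG2, 80 bases at NRXN3 and 115 bases at ROBO1. These 4 windows had 56.8% to 66.8% G and C and 12 to 24 CpG dinucleotides, and the CTNNA2 window had 39.2% and 2.

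Over all 82 starts of the 37 genes, 34 had a summit within 500 bp in all 6 libraries, 29 in 1 to 5 libraries and 19 in none. Starts that lie close together share summits and are not independent. The 250 bases before the start had a median of 66.6% G and C and 19.5 CpG dinucleotides for the first of these sets. The medians were 57.2% and 14 for the second, 43.2% and 3 for the third, and 58.0% and 11 over all 35116 starts of the promoter table. The number of CpG dinucleotides reached from 3 to 40 in starts with a summit in all 6 libraries and from 0 to 12 in those with none. The start with 12, the outermost of CNTNAP2, had a locus of all 6 libraries 798 bp away, outside the 500 bp. The letters GGGCGG of the GC box, searched on both strands, were in 21 of the 34 windows (61.8%), in 2 of the 19 without a summit (10.5%) and in 42.6% of all windows. CCAAT was in 44.1%, 26.3% and 32.0% of these 3 sets, and TATAAA in 5.88%, 15.8% and 10.7%. The sets differ in place, since starts without a summit were mostly internal. At gene ends the GC box was in 16 of 20 windows with a summit in all 6 libraries and in 1 of 3 without. At internal starts it was in 5 of 14 (35.7%) and in 1 of 16.

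**Figure D1:**
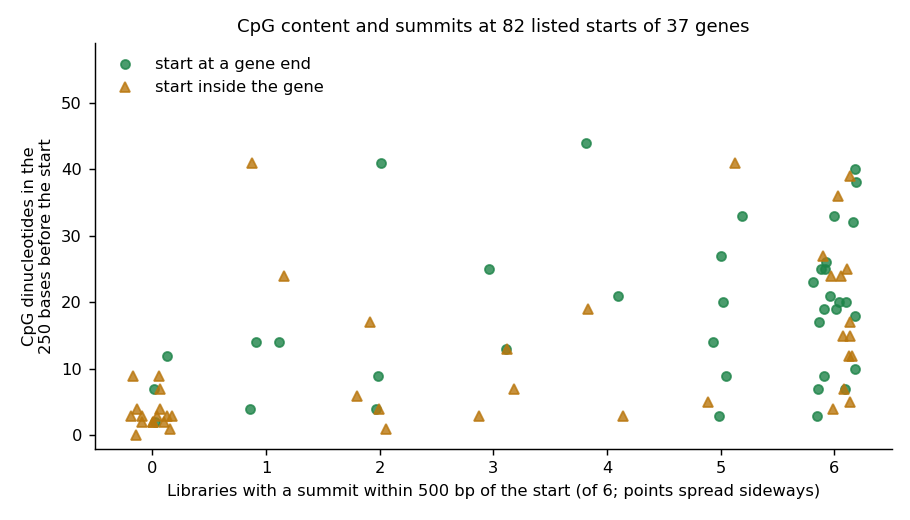
Each point is 1 of 82 starts listed for 37 of the genes; the horizontal axis gives the number of libraries, out of 6, with a summit within 500 bp, and the vertical axis the number of CpG dinucleotides in the 250 bases before the start. All 19 starts without a summit within 500 bp had 12 CpG dinucleotides or fewer, while starts with one in all 6 libraries reached from 3 to 40.

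Gene ends of this set were accessible in most libraries, whatever the hairpin. An end summit was present in all 6 libraries for 39 of the 46 genes. The exceptions were DSCAM and GRID1 with 5 libraries, PTPRT and ROBO1 with 4, CNTN6 with 3, CDH18 with 1, and CTNNA2 with none. The best-scored summit at the outermost start of DAB1, an adaptor of reelin signalling, had scores of 76.0 and 68.0 with shHNRNPU #1, 47.8 and 78.6 with shHNRNPU #2, and 74.8 and 56.9 with shLUC. That of PCDH9, a protocadherin, had 41.0 and 68.5, then 65.2 and 65.4, then 65.4 and 60.7 in the same order. That of DLG2, a scaffold of the postsynaptic density, had 56.8 and 55.7, then 55.0 and 71.2, then 63.6 and 85.8. The groups overlapped at DAB1 and PCDH9, and at DLG2 the shLUC values lay within or above those of the hairpins.

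In some genes an internal start had higher scores than the outermost one. The internal start of NRXN3, a presynaptic adhesion receptor, lies 1109 kb into the gene and had scores of 41.4 and 47.2 with shHNRNPU #1, 55.9 and 47.8 with shHNRNPU #2, and 50.9 and 56.0 with shLUC. Its outermost start had 8.75 to 18.7 over the 6 libraries. The internal start of ROBO1, a Slit receptor, lies 748.5 kb into the gene and had 30.4 and 30.2, then 27.0 and 24.7, then 47.2 and 30.7. Its outermost start had a summit within 500 bp only in the shLUC libraries, with scores of 5.32 and 2.03. CTNNA2, an alpha-catenin of neurons, had no summit at either end of the gene and had one in all 6 libraries beside the start 328 kb inside, with scores of 47.0 and 38.5, then 23.3 and 32.4, then 19.8 and 20.4. At that start the shLUC values were below all 4 hairpin values.

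Summits at gene ends did not become fewer with either hairpin. The ends of the 46 genes held 62 and 67 summits with shHNRNPU #1, 57 and 60 with shHNRNPU #2, and 55 and 59 with shLUC. As a share of all summits of a library this was 0.106% ± 0.00715 (SD, n = 4) with the hairpins and 0.0923% ± 0.00544 (SD, n = 2) with shLUC, a ratio of 1.15. The shares did not overlap between the groups in the deposited lists, and overlapped with lists of one size, which keep the best-scored 52168 summits of each library. The ends of all protein-coding genes took 28.4% ± 1.66 (SD, n = 4) and 26.3% ± 0.394 (SD, n = 2) of the summits, a ratio of 1.08. Of the 46 genes, 0 had fewer end summits in every hairpin library than in either shLUC library and 3 had more. By the same rule for end summits 1.27% of all protein-coding genes with an end summit had fewer and 1.25% had more, and 1.34% and 0.669% of the other long genes. These 3, named here after their values had been seen, were GRIN2A and GRIN2B, subunits of NMDA-type glutamate receptors, and PTPRT, a receptor-type phosphatase. GRIN2B had 2 end summits in each hairpin library and 1 in each shLUC library, and within 500 bp of its outermost start it had summits in the 4 hairpin libraries, with scores of 5.24 to 12.6, and none with shLUC. PTPRT likewise had summits beside its outermost start in the 4 hairpin libraries, with scores of 2.10 to 4.64, and none with shLUC.

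Gene bodies showed the opposite. They held 574 and 664 summits with shHNRNPU #1, 617 and 459 with shHNRNPU #2, and 827 and 773 with shLUC, and every hairpin library was below both controls. As shares these were 0.972% and 1.05%, 1.06% and 0.880%, and 1.33% and 1.26% of the library's summits. The mean was 0.988% ± 0.0814 (SD, n = 4) against 1.29% ± 0.0497 (SD, n = 2), a difference of -0.306 percentage points and a ratio of 0.763. With lists of one size the ratio was 0.796, with a score of at least 5 it was 0.827, and without RIMS1 and KCNN2 it was 0.768. The mean of shHNRNPU #1 was 1.01% and that of shHNRNPU #2 was 0.968%. Fewer summits in a bulk library can come from fewer cells open at a place, from less opening in each cell or from signal that was not called. These cannot be told apart here.

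The same direction, with ratios nearer to 1, was seen outside the genes and in other long genes. The 500 kb on either side of the 46 genes held 1.03% and 1.09%, 1.11% and 1.06%, and 1.24% and 1.22% of the summits, a ratio of 0.872. The bodies of the 679 other protein-coding genes at least as long as CNTN6 held 8.85% ± 0.314 (SD, n = 4) with the hairpins and 9.66% ± 0.132 (SD, n = 2) with shLUC, a ratio of 0.916. In both sets the hairpin libraries were below both controls. The bodies of all protein-coding genes had a ratio of 0.994, and there the groups overlapped. In summits per Mb of gene body, the 46 genes had 10.7 ± 1.63 (SD, n = 4) with the hairpins and 14.8 ± 0.709 (SD, n = 2) with shLUC. The other long genes had 14.2 ± 1.59 and 16.4 ± 0.382, and all protein-coding genes 17.2 ± 1.70 and 18.2 ± 0.159. The bodies of the 46 genes were thus the sparsest of these sets in both groups.

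**Figure D2:**
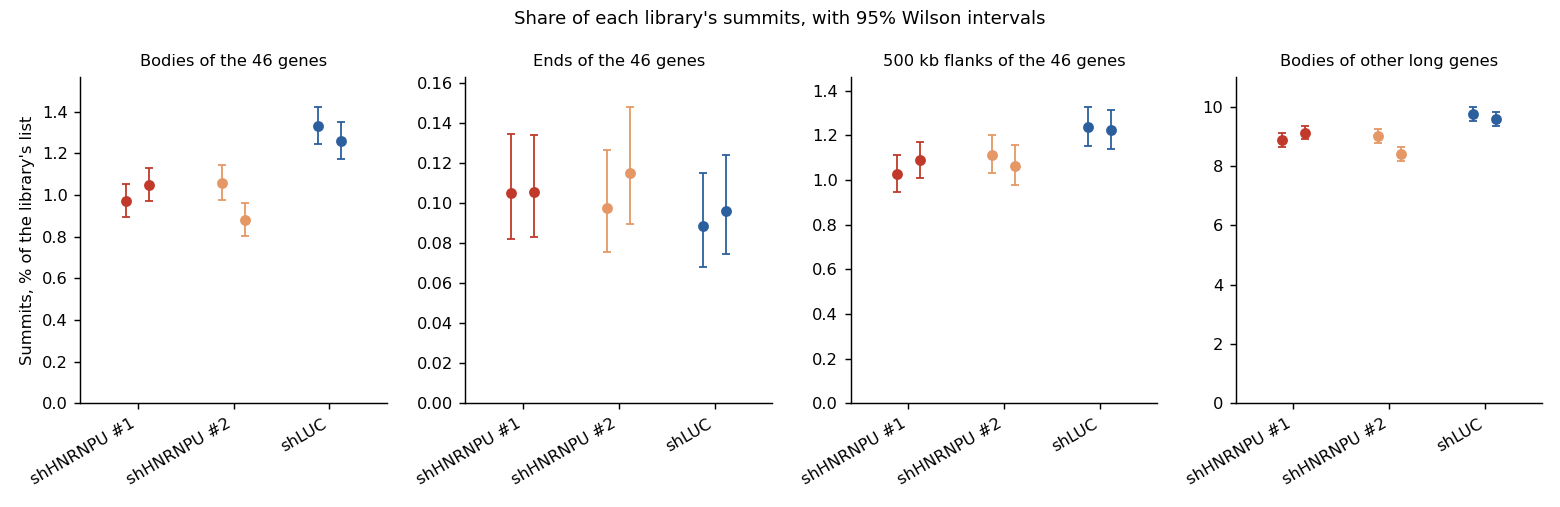
Each point is 1 library, the vertical axis is the percent of that library's summits that lay in the named regions, and the bars are 95% Wilson intervals, which cover counting error only. Both shLUC points lie above all 4 hairpin points in the bodies and flanks of the 46 genes and in the bodies of other long genes, and at the ends of the 46 genes they lie below them.

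Gene by gene, 43 of the 46 genes had a lower mean number of summits with the hairpins than with shLUC, 1 had the same mean (GRIK2) and 2 a higher one (PTPRT and CSMD1). In 18 genes (39.1%) every hairpin library had fewer summits than either shLUC library, and in 0 genes every hairpin library had more. Over all 17339 protein-coding genes with a summit, 3.26% had fewer and 2.30% had more by the same rule, and over the 678 other long genes with a summit the values were 15.8% and 2.51%. Since the genes were selected with this contrast known, nothing is read from these counts. Counting bodies alone gave 21 genes with fewer and 0 with more, where all genes with a body summit gave 4.42% and 2.51% and the other long genes 16.4% and 2.21%. With lists of one size there were 12 with fewer, 10 of them among the 18, and 1 with more, PTPRT. All genes then gave 2.39% with fewer and 2.95% with more, and the other long genes 11.4% and 6.05%. Against shLUC, shHNRNPU #1 alone had fewer summits in 24 genes and more in 1, beside 5.58% and 7.53% of all genes and 23.7% and 10.9% of the other long genes. The hairpin shHNRNPU #2 alone had fewer in 29 and more in 0, beside 7.83% and 4.16% of all genes and 32.6% and 2.95% of the other long genes. The median ratio of hairpin to control mean was 0.753 over the 46 genes, 0.867 over the other long genes and 1 over all protein-coding genes.

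**Figure D3:**
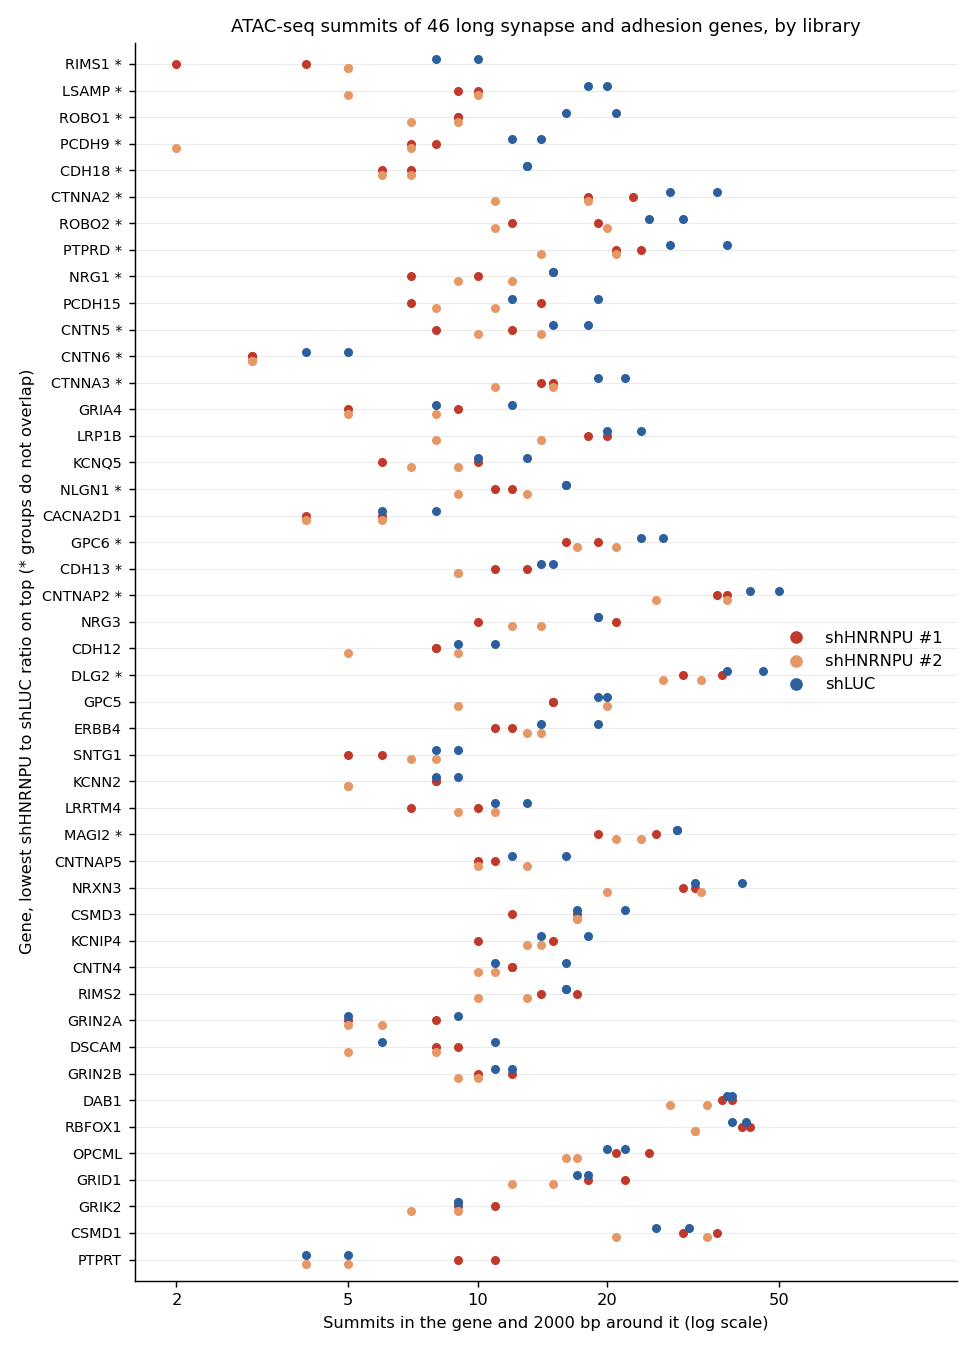
Each row is 1 of the 46 genes, ordered by the ratio of the mean number of summits with shHNRNPU to that with shLUC, and each point is 1 library, on a logarithmic axis of summits in the gene and the 2000 bp around it. The 18 genes marked * have all 4 shHNRNPU points to the left of both shLUC points, from RIMS1 at the top, with 2 to 5 against 8 and 10, and points of equal value lie on each other.

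Proteins of transmitter release and calcium channel subunits were represented by RIMS1, RIMS2 and CACNA2D1. RIMS1, which organises the active zone where vesicles fuse, had 2 and 4 summits with shHNRNPU #1, 5 and 5 with shHNRNPU #2, and 10 and 8 with shLUC, so that the groups did not overlap. Its ratio of means, 0.444, was the lowest of the 46 genes, and with 2 to 10 summits a change of 1 summit weighs heavily in it. The related RIMS2 had 10 to 17 with the hairpins and 16 and 16 with shLUC, which overlapped, as did CACNA2D1, an auxiliary subunit of voltage-gated calcium channels. The 3 genes held 3 lost loci of 18 present in both controls, and 0 gained of 12 in all 4 hairpin libraries. Over all loci 5.68% were lost and 3.59% gained.

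Among the 7 genes of adhesion across the synapse, 3 had fewer summits in every hairpin library. NLGN1, a postsynaptic neuroligin that binds neurexins, had 12 and 11, 13 and 9, and 16 and 16 summits in the order shHNRNPU #1, shHNRNPU #2 and shLUC. PTPRD, a presynaptic receptor phosphatase, had 21 and 24, 21 and 14, and 28 and 38. CNTNAP2, a neurexin-related protein that clusters potassium channels along axons, had 36 and 38, 38 and 26, and 50 and 43. None of these 3 overlapped, and their ratios of means were 0.703, 0.606 and 0.742. PTPRT went the other way in shHNRNPU #1 alone, with 9 and 11 summits there, 4 and 5 with shHNRNPU #2, and 5 and 4 with shLUC. The groups overlapped for PTPRT, NRXN3, LRRTM4 and CNTNAP5. The 7 genes held 11 lost loci of 102 in both controls, and 0 gained of 52 in all 4 hairpin libraries. Over all loci 5.68% were lost and 3.59% gained.

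The 8 immunoglobulin-domain adhesion and guidance genes included 5 without overlap, and their summed summits were 87 and 94, 89 and 70, and 140 and 118, a ratio of 0.659. LSAMP, a cell-surface protein of limbic neurons, had 9 and 10, 10 and 5, and 18 and 20 summits. ROBO1 had 9 and 9, 7 and 9, and 21 and 16. ROBO2, the other Slit receptor of the set, had 12 and 19, 20 and 11, and 30 and 25. Their ratios of means were 0.447, 0.459 and 0.564, and for LSAMP and ROBO1 the hairpin libraries reached at most 10 and the controls at least 16. The contactins CNTN5 and CNTN6, neuronal adhesion proteins anchored to the membrane by a lipid, did not overlap either. CNTN5 had 8 and 12, 14 and 10, and 18 and 15 summits, and CNTN6 had 3 in each hairpin library and 4 and 5 with shLUC, a difference of 1 or 2 summits. OPCML, a relative of LSAMP, had 25 and 21, 16 and 17, and 22 and 20, which overlapped, as did CNTN4 and DSCAM. This group held 13 lost loci of 77 in both controls, and 0 gained of 31 in all 4 hairpin libraries. Over all loci the shares lost and gained were 5.68% and 3.59%.

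Cadherins, protocadherins and alpha-catenins, which join cells by calcium-dependent adhesion and link it to actin, had 5 of 7 genes without overlap and the lowest ratio of summed summits of the 11 role groups, 0.605. PCDH9 had 7 and 8, 7 and 2, and 14 and 12 summits. CDH18, a cadherin of the nervous system, had 6 and 7, 6 and 7, and 13 and 13. CDH13, a cadherin without a membrane-spanning part, had 11 and 13, 9 and 9, and 14 and 15. The control values of PCDH9 and CDH18 were 12 to 14 and the hairpin values reached at most 8. CTNNA2 had 18 and 23, 18 and 11, and 28 and 36 summits, and CTNNA3, another alpha-catenin, had 15 and 14, 15 and 11, and 22 and 19. PCDH15 and CDH12 overlapped between the groups, with ratios of 0.645 and 0.750. CTNNA3, SNTG1, PCDH15, PTPRT and CDH18 had the fewest loci per Mb of the 46 genes, 16.2 to 19.8.

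**Figure D4:**
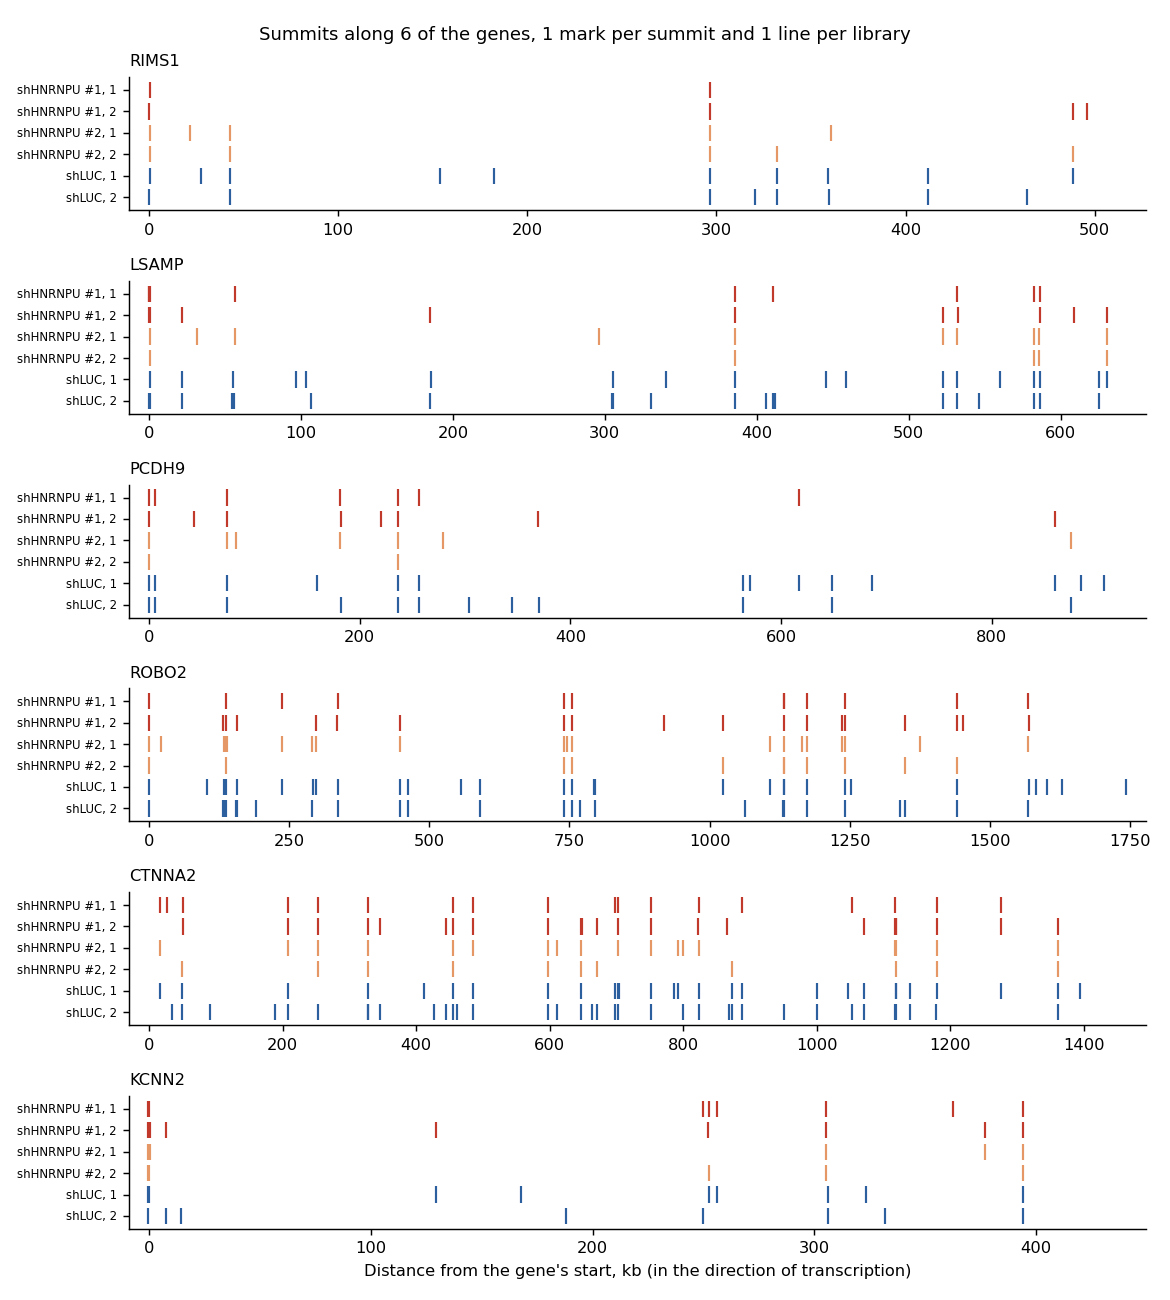
Each mark is a summit, each line a library, and the horizontal axis is the distance from the start of the gene in kb, in the direction of transcription. Along RIMS1, LSAMP, PCDH9, ROBO2 and CTNNA2 the shLUC lines carry more marks in the interior than the shHNRNPU lines, while marks at the gene start are shared, except in CTNNA2, which has none there; in KCNN2 the shared mark near 306 kb is 2 loci 887 bp apart.

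Scaffolds placed 2 of 3 genes among those without overlap. DLG2 had 30 and 37, 33 and 27, and 46 and 38 summits, where the highest hairpin library and the lowest control differed by 1. MAGI2, which gathers receptors and adhesion proteins at the membrane, had 19 and 26, 24 and 21, and 29 and 29. SNTG1, a syntrophin, overlapped with 5 to 8 against 9 and 8. The glypican GPC6, a heparan sulfate proteoglycan of the cell surface, had 16 and 19, 21 and 17, and 27 and 24 and did not overlap, whereas its relative GPC5 did. In neuregulin signalling the ligand NRG1 had 7 and 10, 12 and 9, and 15 and 15 and did not overlap, whereas the ligand NRG3 and the receptor ERBB4 did.

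The remaining role groups had no gene without overlap. The 5 glutamate receptor genes (GRIA4, GRIK2, GRIN2A, GRIN2B and GRID1) had summed summits of 53 and 56, 48 and 38, and 60 and 50, a ratio of 0.886. Potassium channels and their partners (KCNN2, KCNQ5 and KCNIP4) had a ratio of 0.764. KCNN2, a calcium-activated potassium channel, had 8 and 8, 5 and 5, and 9 and 8 summits in all, with overlap, and did not overlap in its body alone. The giant membrane proteins LRP1B, CSMD1 and CSMD3 had a ratio of 0.871, and DAB1 with the splicing factor RBFOX1 one of 0.905. DAB1 had 37 and 39, 34 and 28, and 38 and 39 summits, and GRID1, an organiser of cerebellar synapses, had 22 and 18, 15 and 12, and 18 and 17. GRIA4, OPCML, LSAMP, DAB1 and GRID1 had the most loci per Mb, 50.6 to 61.2, and of these 5 only LSAMP was without overlap.

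Presence at single loci varied between libraries of the same group. Of the 1594 body loci, 722 (45.3%) were in 1 library and 189 (11.9%) in all 6, and in the bodies of other long genes these shares were 47.0% and 12.3%. At the ends of the 46 genes, 24 of 104 loci (23.1%) were in 1 library and 28 (26.9%) in all 6. The share of loci in both of a pair of libraries, out of those in either, was 0.415 for the 2 shLUC libraries, 0.422 and 0.423 for the repeats of shHNRNPU #1 and #2, and 0.421 to 0.451 between the 2 hairpins. Between a hairpin and a control library it was 0.360 to 0.397, below all of these. The order was the same in the bodies of other long genes, with 0.367 to 0.383 between a hairpin and a control and 0.393 to 0.417 otherwise, and over all loci, with 0.475 to 0.478 and 0.496 to 0.524. Body summits were of middling strength, with a median percentile by score within their library of 39.3 to 43.6 with the hairpins and 40.4 and 36.5 with shLUC. Of the 189 body loci in all 6 libraries, 13 lay within 500 bp of a start listed for any gene.

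Lost loci were those held by both shLUC libraries and by 0 of the 4 hairpin libraries, and gained loci were held by all 4 hairpin libraries and by neither control. In the 46 genes 59 of 512 loci of both controls were lost (11.5%), against 5.68% of all loci and 9.39% in the bodies of other long genes. Of 274 loci in all 4 hairpin libraries 11 were gained (4.01%), against 3.59% and 3.20%. The rule for choosing RIMS1 and KCNN2 used these calls, and nothing is read from the shares. All 59 lost and all 11 gained loci were in gene bodies, and 0 of 46 end loci of both controls were lost. Lost loci lay in 32 genes, gained ones in 8, both kinds in 4 and neither in 10. The genes with 4 lost loci each were LSAMP, ROBO2, CNTNAP2 and GPC6, named after the counts had been seen. A hairpin library had a summit 282 bp from a lost locus of ROBO2, 475 bp from a lost locus of LSAMP and 629 bp from a lost locus of GPC6. If a lost locus had to lack hairpin summits within 1000 bp, these loci would not count, and only CNTNAP2 would keep 4.

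Most lost loci were weak ones. Body loci of both controls were binned by percentile by score. In the bin up to 25, 26 of 68 were lost (38.2%), and this fell to 20 of 140 (14.3%), 10 of 156 (6.41%) and 3 of 102 (2.94%) in the bins up to 50, 75 and 100. In the bodies of other long genes the 4 shares were 25.8%, 13.4%, 5.42% and 0.407%. The 3 lost loci of the top bin include those of KCNN2 and RIMS1, on which these genes were selected. Nothing is therefore read from the share of that bin. The lowest percentile among the libraries holding a locus is another measure than that of the bins. Its median was 24.2 for the 59 lost and 20.6 for the 11 gained loci. A hairpin library had a summit between 250 and 1000 bp away for 6 of the lost loci, and a shLUC library for 2 of the gained loci. The surroundings of these genes hold few genes, with a median of 1 midpoint of a protein-coding gene within 500 kb of a locus, against 7 over all loci. Where 2 or fewer were that near, 12.7% of 425 loci of the 46 genes were lost, 10.9% in bodies of other long genes, and 11.5% of 4728 loci outside protein-coding genes.

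The strongest lost loci were in KCNN2 and RIMS1, for which these genes had been selected. The KCNN2 locus at chr5:114362018 is the one beside the internal start printed above, with scores of 29.4 and 21.0 in shLUC repeats 1 and 2. The strongest gained locus of the set, at chr5:114361131, lies 887 bp from it in the same gene, 939 bp from the same start, with scores of 57.7 and 34.1 with shHNRNPU #1 and 29.7 and 29.4 with shHNRNPU #2. All 6 libraries thus had a summit within 1000 bp of this start, at one position with shLUC and at the other with the hairpins. With absence asked within 1000 bp, neither KCNN2 locus would count, the one as lost or the other as gained. The RIMS1 locus at chr6:72245750 lies 359 kb into the gene, with scores of 22.5 and 20.4 with shLUC. The nearest summit of a hairpin library was 1398 bp away.

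The next lost loci were weaker. GPC6 had one at chr13:93224691 with scores of 12.8 and 20.3 with shLUC, 2116 bp from its internal start. A weaker lost locus at chr13:93226940, with 4.24 and 5.26, is the one beside that start. LRP1B, a giant relative of the LDL receptor, had one at chr2:140348966 with 11.1 and 13.5. LSAMP had one at chr3:115819959 with 11.3 and 9.81, and CNTN4, a contactin, one at chr3:2421194 with 10.3 and 7.74. The nearest summits of a hairpin library lay 2878 to 88194 bp from these loci, leaving aside the weaker GPC6 locus, which had one at 629 bp.

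After KCNN2, the strongest gained locus was in CSMD1, a giant membrane protein of the complement-control kind, with scores of 15.6 and 8.97 with shHNRNPU #1 and 11.6 and 12.3 with shHNRNPU #2. RBFOX1 had one at chr16:5429128 with 5.82 and 8.29, then 4.77 and 14.0. ERBB4 had one at chr2:211888662 with 8.70 and 10.6, then 4.19 and 8.91. These were below the KCNN2 locus in every library. CDH12 had one at chr5:22631888 with 10.97 and 7.34, then 5.12 and 4.71, and DAB1 one at chr1:57103085 with 7.34 and 4.39, then 5.84 and 4.25. Apart from KCNN2, the nearest shLUC summits of these 6 gained loci were 7270 to 23837 bp away.

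Length went with the difference across all protein-coding genes. Fewer summits in every hairpin library were seen in 1.73% of genes up to 10 kb, 1.57% from 10 to 50 kb, 3.12% from 50 to 100 kb and 6.57% from 100 to 300 kb. More summits in every hairpin library were seen in 1.93%, 1.94%, 2.52% and 3.56% of these classes. Both shares were higher from 100 to 300 kb than up to 10 kb, and a gene with few summits has little room to meet either rule. From 300 to 1000 kb fewer summits were seen in 5 of 19 genes of the set (26.3%) and 95 of 684 others (13.9%), and over 1000 kb in 13 of 27 (48.1%) and 15 of 42 others (35.7%). More summits were seen in 0 genes of the set in both classes, and in 2.78% and 0% of the others. The ratio of summed body summits was 0.682 and 0.736 for the set in these 2 classes and 0.880 and 0.801 for the others. It was 1.11 for genes up to 10 kb. Of 73 related genes from the same families, not in the set and with a median length of 158 kb, 72 had a summit, 6 had fewer and 5 had more in every hairpin library. Of these, 23 were at least as long as the shortest of the set, with 5 fewer and 2 more.

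**Figure D5:**
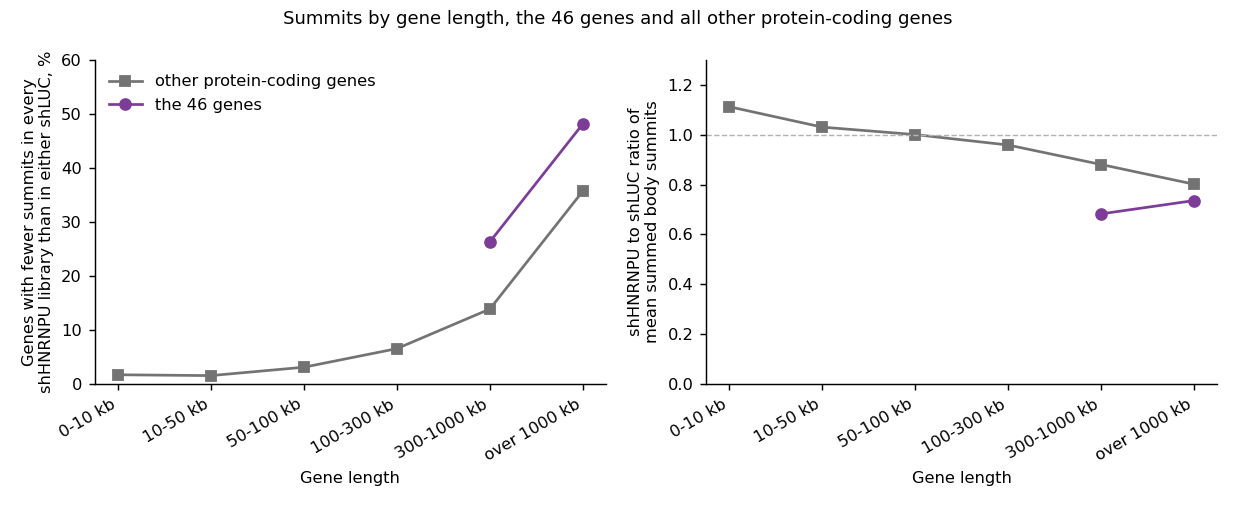
The left panel gives the percent of genes with fewer summits in every shHNRNPU library than in either shLUC library, and the right panel the ratio of the mean summed body summits with shHNRNPU to that with shLUC, by class of gene length. In other genes the percent reaches 35.7% over 1000 kb and in the 46 genes 48.1%, while the ratio falls from 1.11 to 0.801 in other genes and is 0.682 and 0.736 in the 46 genes.

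The outer limit of 2000 bp decided few summits. Between 1500 and 2000 bp outside the genes lay 7 summits, which were counted, at 0 and 2 with shHNRNPU #1, 1 and 2 with shHNRNPU #2, and 1 and 1 with shLUC. Between 2000 and 2500 bp lay 10, which were not, at 2 and 1, 1 and 1, and 3 and 2.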

How the data were processed

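ATAC-seq had been done on H1 cells with 3 hairpins, 2 libraries each. The authors deposited 1 list of summits per library, whose score is the −log10 of the q-value (from the layout and the values). The submitters' processing notes name cutadapt, Bowtie2, SAMtools, MACS2, deepTools and the build hg38, while versions and settings are not given in the sources used here. Groups were taken from the titles. The publication given with the series reports experiments other than these and was used for style alone.

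Genes were the 20037 protein-coding ones of the RefSeq table of GRCh38.p14, which gives no exons. The summit of highest percentile by score founded a locus and absorbed those within 250 bp, until none was left. A start took the best-scored summit within 500 bp in each library. The genes, lists and rules were chosen with earlier results of these data known. Described in full were RIMS1 and KCNN2, genes without overlap between the groups, the 5 genes with most and the 5 with fewest loci per Mb, the 6 strongest lost and gained loci, and genes by their end summits. No test of the contrast between the hairpins and shLUC was run, since the genes were selected on it. With 4 libraries against 2, an exact two-sided permutation test of the absolute difference of means cannot go below p = 0.0667. Counting and grouping were tested on simulated summits.

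Alternatives were lists of one size, a score of at least 5, gene ends of 500 bp, the set without RIMS1 and KCNN2, match distances of 100 and 500 bp, absence within 1000 bp, summits as a share of the library, and leaving out each library. The tools were matplotlib 3.10.9, scipy 1.17.1, pandas 2.3.3 and numpy 2.4.6 under Python 3.11.15.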

Additional observations from a re-analysis of the deposited data

Results flagged for a closer look

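In 4 of the 46 genes 1 of the 4 shHNRNPU libraries stood apart from the other 3, judged by its gap to the nearest of them over the whole range of the 4 (Dixon's ratio). CNTNAP2 had 26 summits in shHNRNPU #2 repeat 2 against 36, 38 and 38 in the others, a ratio of 0.833. PCDH9 had 2 in the same library against 7, 7 and 8, a ratio of 0.833. That library has the shortest list, with 52168 summits, and its part in these values was not tested. ROBO1 had 7 in shHNRNPU #2 repeat 1 against 9 in each of the others, a ratio of 1 that rests on a difference of 2 summits. CSMD3 had 12 in shHNRNPU #1 repeat 1 against 17 in each of the others, also a ratio of 1. The 46 genes and 3 shares made 49 groups, among which chance would give about 2.45 such cases if the groups were independent and their values untied. The gene counts are small, often tied and drawn from the same 4 lists, so that number is only a rough guide.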

How the results depend on the processing

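Of 78 recomputed values, 65 stayed within 1 SD of the hairpin libraries or within 1.5 times the count, 13 moved farther and 0 reversed. With a score of at least 5 the difference in share between shHNRNPU and shLUC was -0.168 percentage points over the whole genes (-0.293 in the deposited lists) and -0.185 in their bodies, gained loci numbered 7, and 10 genes had fewer summits in every hairpin library. With lists of one size 1 gene had more. The cause of these shifts was not tested. Leaving out each library in turn gave 69 to 271 lost loci, 13 to 35 gained loci and 18 to 31 genes with fewer summits. Fewer libraries then have to hold or lack a locus. Without shLUC repeat 1 there were 246 lost and 35 gained loci, without shLUC repeat 2 there were 271 and 31, with 31 genes, and gained loci were 17 without shHNRNPU #1 repeat 1, 18 without shHNRNPU #2 repeat 1 and 23 without shHNRNPU #2 repeat 2. The share in bodies stayed lower and the share at ends higher with the hairpins under each of these alternatives that gives a share. No paired analysis was possible because the contrast was not tested and the labels do not say what a shared repeat number marks. Side by side by repeat number, the shares in bodies were 0.972%, 1.06% and 1.33% for shHNRNPU #1, shHNRNPU #2 and shLUC in repeat 1, and 1.05%, 0.880% and 1.26% in repeat 2.

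With 2 control libraries, each decides which loci count as present. Read depth is unknown. Gene length, sparse gene surroundings and membership of the set go together and cannot be told apart here. Exons were not used here, so body loci were not placed in exons or introns.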

Other observations

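Of the 59 lost loci, 7 lay inside a gene listed as not protein-coding as well as in one of the 46 genes, and of the 11 gained loci 1 did, a weak one in DLG2 inside HNRNPA1P72, a pseudogene related to HNRNPA1. Near-identical copies can share reads, so that locus is uncertain. It had scores of 3.27 to 8.38 in the 4 hairpin libraries. A shLUC library had a summit 264 bp from it, just outside the match distance. With absence asked within 1000 bp this locus would not count as gained.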
